A study of Homo sapiens with 4 samples.

Results

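The immediate early response genes described here are 10 genes: FOS, FOSB, FOSL1, JUN, JUNB, EGR1, ATF3, IER2, IER3 and DUSP1. They were chosen by name, with earlier results of these data known, out of 20033 protein-coding genes that GENCODE version 44 places on chromosomes 1 to 22, X and Y. For each gene, the RAD21 peaks were taken whose summit lay in the annotated gene or within 50 kb of it. This gave 70 of the 56853 peaks in the list, and each of the 70 belonged to the window of only 1 gene. RAD21 is a core subunit of cohesin, the ring complex that extrudes chromatin loops and holds sister chromatids together. It was measured by ChIP-seq (antibody ab992) in untreated wild-type HCT116 cells, a human colon carcinoma line, grown for a day after seeding. The series also contained RAD21 ChIP libraries of HCT116_RAD21_AID cells, a single clone that carries the mAID degron on RAD21 and expresses OsTIR1, without auxins and after 6 h with indole-3-acetic and α-naphthaleneacetic acids at 500 μM each, as well as an Input library of the auxin-treated cells. Those 3 libraries were not analysed here. There was 1 library per condition, so no peak could be compared with a spread between replicates, and no test between genes was made.

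Immediate early genes are transcribed within minutes of a growth factor or stress signal, without new protein synthesis, through transcription factors that are already present in the cell. Serum response factor acts through the CArG box, and CREB through the cyclic AMP response element (CRE). Most of the products are transcription factors or feedback regulators, and several of the genes are switched on through distal enhancers. Where loop extrusion by cohesin halts, most often at CTCF bound in an orientation that faces the extruding complex, the halted complexes appear as strong RAD21 peaks. Such peaks can mark the ends of the domains within which an enhancer and a promoter meet, but not every strong peak is such an end. Transcription of these genes was not measured in this series, and the peaks show where RAD21 was, not whether a gene was induced.

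The signal of a peak is given as its fold enrichment, the ratio of ChIP fragments at the summit to a background drawn from Input, with 1 added to each. The background was local, except at peaks where it was a floor of 5.9 fragments. The number of ChIP fragments was recovered from the fold enrichment and the p-value. Intervals in brackets are exact 95% Poisson limits on that number, carried over to the fold enrichment, and cover counting error only. In the whole list the median fold enrichment was 5.58 and the median number of fragments at the summit was 48. The file gives no total for the library, so depth is stated by the fragments behind each peak. A peak is called strong below when its fold enrichment was at least 10, which held for 27.2% of all peaks.

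The sequences right before 3 of the starts are shown first, because these promoters carry the elements for which the genes are textbook examples and because RAD21 peaks lay on either side of them. They are the 250 bases before the RefSeq start (GRCh38.p14), written 5′ to 3′ on the strand of the gene. Capitals mark CArG boxes and the short CRE site TGACG, which reads CGTCA on the other strand, including the full CRE TGACGTCA, in which the short site occurs on both strands.
EGR1 (chr5:138465229-138465478, plus strand): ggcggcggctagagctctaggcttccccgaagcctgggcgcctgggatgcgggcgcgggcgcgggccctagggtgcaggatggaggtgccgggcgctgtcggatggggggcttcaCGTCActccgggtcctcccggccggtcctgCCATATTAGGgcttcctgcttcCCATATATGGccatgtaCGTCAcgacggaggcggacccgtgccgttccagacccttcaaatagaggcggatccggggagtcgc
DUSP1 (chr5:172771196-172771445, minus strand): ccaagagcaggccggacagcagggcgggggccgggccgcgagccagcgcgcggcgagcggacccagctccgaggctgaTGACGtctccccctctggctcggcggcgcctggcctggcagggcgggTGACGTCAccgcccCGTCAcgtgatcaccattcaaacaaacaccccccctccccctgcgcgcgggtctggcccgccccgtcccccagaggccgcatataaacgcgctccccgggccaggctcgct
FOS (chr14:75278578-75278827, plus strand): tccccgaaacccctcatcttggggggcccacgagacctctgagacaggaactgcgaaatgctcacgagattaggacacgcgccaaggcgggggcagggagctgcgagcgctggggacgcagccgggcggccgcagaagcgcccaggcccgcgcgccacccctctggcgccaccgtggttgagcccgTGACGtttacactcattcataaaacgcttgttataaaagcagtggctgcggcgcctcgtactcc

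The RefSeq promoter table, which runs from 250 bases before to 50 bases after each start, held 8 of the 10 genes, and FOSL1 and IER3 were not in it. ATF3 had 2 entries, neither at the canonical start where its RAD21 peak lay, so the 8 genes had 9 promoters in the table. EGR1 was the only 1 of the 8 with a CArG box in this window. Bases farther upstream were not searched, so the absence of a CArG box in FOS and the others holds for this window only. It had 2 of them, CCATATTAGG from −105 to −96 and CCATATATGG from −83 to −74, whereas 1.29% of the 35116 promoters in the table held at least 1. The full CRE was present in DUSP1, from −125 to −118, and in 1.85% of all promoters. The short CRE site was found in 7 of the 8 genes, namely FOS, FOSB, JUN, JUNB, EGR1, IER2 and DUSP1, and in 24.6% of all promoters. The AP-1 site TGANTCA was found in 0 of the 8 and in 7.71% of all promoters. The GC box GGGCGG, or CCGCCC on the other strand, was present in 6 of the 8 and in 45.0% of all promoters, and the short CRE site of JUN shared 1 base with a GC box. None of the bases printed above lay inside a RAD21 peak. These promoters were printed partly because peaks lay on either side of them, so this follows in part from the choice. Of the corresponding 250 bases, all 250 lay inside a peak in IER2, 69 in JUNB, 20 in JUN and 0 in FOSB. The short CRE site and the GC boxes of IER2 lay inside its peak. The sites found in the other genes lay outside any peak.

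RAD21 peaks were present at the promoters of 9 of the 10 genes, that is, with a summit within 1 kb of an annotated start. Of all protein-coding genes, 43.8% had such a peak. The exception was FOSB (chr19:45467995-45475179, plus strand), which encodes a FOS family subunit of the AP-1 factor. Its nearest summits lay 21576 bp before its start and 3948 bp beyond its end, and no base of the gene was inside a peak. At genes with a promoter peak the median of the highest fold enrichment was 5.51 for the 9 immediate early genes and 4.21 (quartiles 3.16 and 8.09) for all 8777 protein-coding genes, so the promoter peaks of the set were mostly of moderate height. Within this limit of 1 kb, only DUSP1 had a strong promoter peak, against 8.76% of all protein-coding genes. A strong peak of JUN lay outside the limit, at −1239 bp.

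Among the subunits of AP-1, the dimeric factor formed by JUN and FOS family proteins, JUN (chr1:58776845-58784048, minus strand) had the highest promoter peak. It lay from 58783138 to 58784021 on chromosome 1, with 50 fragments over a background of 6.52, a fold enrichment of 6.78 (5.07 to 8.90). The peak of JUNB (chr19:12791486-12793315, plus strand), from 12791417 to 12794345 on chromosome 19, had 39 fragments and a fold enrichment of 4.66 (3.35 to 6.33). The peak of FOS (chr14:75278826-75282230, plus strand), from 75278841 to 75279419 on chromosome 14, had 40 fragments over a background of 9.47 and a fold enrichment of 3.92 (2.82 to 5.30). FOSL1 (chr11:65892049-65900573, minus strand), which encodes FRA-1, had the lowest promoter peak of the set, from 65899769 to 65900390 on chromosome 11, with 23 fragments and a fold enrichment of 2.96 (1.92 to 4.38). The counting intervals of JUN and FOSL1 did not overlap, whereas neighbours in this order could not be told apart by them.

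Of the other transcription factors, ATF3 (chr1:212565334-212620777, plus strand), a stress-induced member of the ATF/CREB family, had a promoter peak of fold enrichment 8.87 (6.83 to 11.3) from 62 fragments, from 212608658 to 212609769 on chromosome 1. ATF3 is annotated over 55444 bp with 7 different starts, and the peak was at the internal canonical start. The zinc finger factor EGR1 (chr5:138465479-138469303, plus strand) had 1 of the lowest promoter peaks, from 138465538 to 138465918 on chromosome 5, with 21 fragments and a fold enrichment of 3.19 (2.03 to 4.80). The interval of EGR1 lay below that of ATF3. IER2 (chr19:13150411-13154911, plus strand), a nuclear regulator of transcription, had 41 fragments and a fold enrichment of 5.51 (3.99 to 7.42), with the summit 16 bp after its start. IER3 (chr6:30743199-30744548, minus strand), which encodes a regulator of apoptosis, had 58 fragments and a fold enrichment of 7.53 (5.75 to 9.69). Both values were within the range of the AP-1 genes and ATF3.

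DUSP1 (chr5:172768096-172771195, minus strand), which encodes a phosphatase that switches off MAP kinases, was the only gene of the set with more than 1 promoter peak. The upstream peak, from 172771597 to 172772556 on chromosome 5, had 94 fragments and a fold enrichment of 13.8 (11.2 to 16.8). The second, from 172770438 to 172771178, had 76 fragments and a fold enrichment of 9.21 (7.28 to 11.5). Among protein-coding genes with a promoter peak, 86.2% had a lower highest value than DUSP1. The summit at −961 bp was just inside the limit of 1 kb, and the nearest summit just outside it was that of EGR1 at −1204 bp.

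The highest promoter summit lay downstream of the canonical start, inside the gene, in 8 of the 9 genes, at a median of 187 bp. Within 1 kb of their canonical start, 6841 protein-coding genes had a summit, and 55.3% of these were downstream, with a median of 76 bp and quartiles of −244 and 313 bp. Of the 9 genes, only DUSP1 had its highest promoter summit upstream. This depends on the limit of 1 kb, and no other limit was tried for it. Outside the limit, JUN had a higher upstream summit at −1239 bp, with a fold enrichment of 19.5 against 6.78. EGR1 likewise had one at −1204 bp, with 7.76 against 3.19. The positions of the other summits were 16 bp (IER2), 132 bp (EGR1), 142 bp (FOS), 187 bp (IER3), 231 bp (JUN), 299 bp (JUNB), 503 bp (FOSL1) and 751 bp (ATF3).

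Around the start, 2 arrangements recurred. Both were seen in the data first and then counted over all genes. In FOS, JUN, EGR1 and DUSP1, a summit lay on each side of the canonical start within 2 kb while the start itself was in no peak. This was the case in 4 of the 10 genes and in 3.49% of all protein-coding genes. In FOS the summits were at −1281 and 142 bp, with fold enrichments of 3.59 and 3.92, and the stretch without a peak between them was 954 bp long. In EGR1 they were at −1204 and 132 bp, with 7.76 and 3.19, and 829 bp were without a peak. In DUSP1 they were at −961 and 464 bp, with 13.8 and 9.21, and 418 bp were without a peak. In JUN the upstream peak, from 58784278 to 58785837, was the higher by far, with a fold enrichment of 19.5 (16.8 to 22.5) at −1239 bp against 6.78 at 231 bp, and the gap measured 256 bp. The distance between the summits was 1336 to 1470 bp in the 4 genes, and in the 700 protein-coding genes with such a pair its median was 1149 bp, with quartiles of 840 and 1678.75 bp. The downstream peak began only 13 bp after the start in FOS, 17 bp in DUSP1, 26 bp in JUN and 59 bp in EGR1. With all peak edges moved out by 50 bp, an alternative chosen after seeing the data, the pair was left in 1 gene, EGR1, and in 2.80% of all protein-coding genes, so that the count of 4 depends on the called edges. In FOS, EGR1 and DUSP1 the whole of the sequences printed above fell into the gap, with the CArG boxes of EGR1 and the CRE of DUSP1. In JUN all but 20 of the corresponding 250 bases did. The printed promoters were chosen partly for the peaks on either side, so their place in the gap follows in part from that choice. In IER2, whose start was inside a peak, all of the 250 bases lay in that peak. In JUN the upstream summit was also within 1 kb of the start of the divergent long non-coding RNA gene LINC01135 and of ENSG00000290013, in EGR1 within 1 kb of that of ENSG00000289267, and in DUSP1 within 1 kb of those of ENSG00000253736 and ENSG00000289170, all non-coding, so that these peaks cannot be assigned to the immediate early gene alone.

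In the other arrangement the start was inside a peak. The canonical start was inside a peak in 5 of the 10 genes, against 15.3% of all protein-coding genes, namely FOSL1, JUNB, ATF3, IER2 and IER3. The FOSL1 peak, of 622 bp, reached only 2 bp beyond the start. With the edges moved out by 50 bp the count was 8 of the 10 genes (18.8% of all). The JUNB peak was 2929 bp wide, wider than 99.9% of all peaks, and contained the whole of the 1830 bp gene. The IER3 peak, from 30742085 to 30744680 on chromosome 6, was 2596 bp wide and contained the whole of the 1350 bp gene. In IER2, a peak of 971 bp covered the start and another of 2733 bp, from 13153033 to 13155765 on chromosome 19, with a fold enrichment of 7.27 (5.49 to 9.45), covered the end. The summit of the latter was also within 1 kb of the starts of the non-coding genes ENSG00000267598 and ENSG00000287296. The median width of the 10 promoter peaks was 922 bp, and that of the 10220 promoter peaks of all protein-coding genes was 480 bp. The annotated end of the gene was inside a peak in 4 of the 10 genes (FOSL1, JUNB, IER2 and IER3), against 2.41% of all protein-coding genes. The genes of the set were short, with a median length of 4163 bp against 27471 bp. Among the 5133 protein-coding genes of at most 10 kb, which include 9 of the 10, the share with the end in a peak was 3.04%, with the pair around the start 3.74% and with a promoter peak 32.8%. LINC01135, HOOK2, STX10, HCG20 and ENSG00000289267 have annotated starts within 1 kb of the promoter summits of JUN, JUNB, IER2, IER3 and EGR1, in this order, and the part of these starts in the peaks was not tested.

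Each of the 10 genes had further peaks around it. All 10 windows contained at least 1 peak, which was also so for 96.3% of all protein-coding genes. The number of peaks per window was 12 for JUNB, 11 for FOSB, 10 for FOSL1, 8 for IER2, 7 for IER3, 5 each for FOS, JUN and EGR1, 4 for DUSP1 and 3 for ATF3, although the ATF3 window was the longest. The median was 6 peaks for the set and 4 for all protein-coding genes. Over the summed length of the windows, this was 63.8 peaks per Mb for the set and 30.1 for all genes, whose windows are longer because most of these genes are longer. For the 5133 protein-coding genes of at most 10 kb the median was 4 peaks, and for the 9 genes of the set among them it was 7. Of all protein-coding genes, 95.2% had fewer peaks than JUNB and 22.2% had fewer than ATF3. JUNB, FOSB and IER2 lie on the gene-dense chromosome 19. Their median was 11 peaks, and that of the other 7 genes was 5, against 5 for all genes of chromosome 19 and 4 for those of the other chromosomes. Some of the flanking summits lay within 1 kb of annotated starts of other genes, and to which gene such a peak belongs was not tested. A window held between 0 (FOS, JUN, DUSP1) and 9 (FOSL1) starts of other protein-coding genes, with a median of 2 in the set and in all genes. Here and for the intervals below, each gene was counted by its outermost annotated start.

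Most of the 70 peaks, 58, lay in the flanks, which were long beside genes with a median length of 4163 bp. Of the 70 peaks, 22 were strong (31.4%, against 27.2% of all peaks). Of these, 21 were flanking peaks, 7 of the 24 upstream and 14 of the 34 downstream of the genes. The same split was not counted over all genes. Only 2 peaks lay inside a gene body apart from the promoters, and neither was strong. The CTCF consensus, a 12-base motif searched on both strands within 50 bp of the summit with at most 1 mismatch, was present at 14 of the 21 strong flanking peaks (66.7%) and at 7 of the 37 weaker ones (18.9%). In the whole list, 62.4% of strong peaks and 29.7% of the others had a match, and windows 5 kb away from the summits had one in 0.761%. Of the 10 promoter peaks only 1 had a match, the downstream peak of DUSP1, against 20.6% of all promoter peaks of protein-coding genes. Outside the promoter limit, the EGR1 peak at −1204 bp also had a match, on the plus strand with 1 mismatch.

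For 8 of the genes, the sequence at the nearest strong flanking peak with a match on 1 strand is shown here, because its strand gives the direction in which CTCF would face. Each is 30 bases of GRCh38, 5′ to 3′ on the strand of the match, with the 12 matching bases in capitals.
FOS, downstream (chr14:75296259-75296288, minus strand, 1 mismatch): ctcacatgtGCACTAGGGGGCagagctgcc
FOSB, upstream (chr19:45439614-45439643, plus strand, exact): ctgcgggggCCACCAGGGGGCgcggcgccc
JUN, downstream (chr1:58769429-58769458, minus strand, 1 mismatch): aaaacagtgCCGGTAGATGGCgccagaggg
JUNB, upstream (chr19:12777725-12777754, plus strand, exact): cgcccgggcCCACCAGGGGGCgcggagacc
EGR1, upstream (chr5:138450124-138450153, plus strand, exact): tggaaaagcCCACTAGGTGGCgcagctgcc
ATF3, downstream (chr1:212665398-212665427, plus strand, 1 mismatch): tgccagcagCCACGAGATGGCgctgcgatc
IER2, downstream (chr19:13194675-13194704, plus strand, 1 mismatch): tccatctggCCTCCAGGTGGCgctgtcgac
IER3, downstream (chr6:30731018-30731047, minus strand, exact): ggagcgggcCCAGCAGGTGGCagtgcagga

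A pair of strong peaks, 1 on each side of the gene within 50 kb, was found for 4 of the 10 genes, FOSB, JUN, JUNB and IER2, against 16.9% of all protein-coding genes. On chromosome 19 the share was 25.4%, and all 3 genes of the set on that chromosome had a pair. On the other chromosomes it was 16.2%, and JUN was the only 1 of the 7 with a pair. These flanking peaks are the ones that could bound a domain around the gene, which was not tested by any contact measurement here.

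JUNB had the highest peak of all 10 windows. It lay 3384 bp beyond the end of the gene, from 12796154 to 12797102 on chromosome 19, with 323 fragments over a background of 8.52 and a fold enrichment of 34.0 (30.4 to 37.9). It had no CTCF match and lay within 1 kb of the start of the non-coding gene ENSG00000267062. On the other side, 13721 bp before the gene, a peak lay from 12777485 to 12778176 within HOOK2, within 1 kb of an annotated HOOK2 start. It had 195 fragments, a fold enrichment of 25.8 (22.3 to 29.6) and the exact consensus on the plus strand, facing JUNB. The summits were 18934 bp apart, and JUNB was the only protein-coding gene whose outermost annotated start lay between them, although other annotated starts of HOOK2 also lie there.

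JUN had the narrowest interval between strong peaks, 15843 bp, and was likewise the only protein-coding gene with its outermost start in it. The upstream peak was the one at −1239 bp described above, which had no match. It counted as flanking only because it lay outside the promoter limit of 1 kb. The only other upstream peak in the window had a fold enrichment of 5.04, so the pair of JUN depends on that limit. The downstream peak, from 58769119 to 58769710 on chromosome 1, with 124 fragments and a fold enrichment of 14.6 (12.1 to 17.4), had its match on the minus strand, facing away from the gene. A further strong peak from 58739815 to 58740354, with a fold enrichment of 10.9 (9.30 to 12.8), had an exact match that faced the gene.

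For FOSB, a peak 28339 bp before the gene in an intron of ERCC1, from 45439382 to 45440079 on chromosome 19, had 221 fragments, a fold enrichment of 28.9 (25.2 to 32.9) and the exact consensus on the plus strand, facing the gene. The peak 3948 bp beyond the end of FOSB, from 45478033 to 45479370, had 197 fragments, a fold enrichment of 17.3 (15.0 to 19.9) and no match, and lay within 1 kb of an annotated start of ERCC1. The interval of 39471 bp held the starts of FOSB and ERCC1. For IER2 the pair was weaker and farther apart. The peak in an exon of LYL1, 48954 bp before the gene, had 102 fragments and a counting interval of 9.81 to 14.6 on its fold enrichment, and the peak 39794 bp beyond the gene had 81 fragments and a fold enrichment of 10.6 (8.45 to 13.1). Both intervals included values below 10. The interval of 93248 bp held the starts of 5 protein-coding genes.

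The remaining 6 genes had strong peaks within 50 kb on 1 side or on neither. FOS had 3 strong peaks, all downstream, with fold enrichments of 19.9 (17.4 to 22.6), 13.5 (11.3 to 16.1) and 24.4 (21.2 to 27.9) at 14025, 21450 and 25736 bp from the end of the gene. The first lay in an exon of LINC01220 and had its match on the minus strand, facing FOS, the second had no match, and the third had its match on the plus strand, facing away. The nearest strong peak upstream of FOS was 146244 bp away, outside the window. IER3 had strong peaks in exons of FLOT1 and TUBB, 12161 and 20434 bp downstream, with fold enrichments of 23.3 (20.5 to 26.2) and 10.3 (8.47 to 12.4), and the next upstream was at 84126 bp. At the FLOT1 peak the exact match was on the minus strand, facing away from IER3, and at the TUBB peak there were matches on both strands. FOSL1 had 1 strong peak, 7222 bp downstream at the FIBP promoter, with 12.1 (10.3 to 14.2) and matches on both strands. ATF3 had 1, 44663 bp downstream and within 1 kb of an annotated start of LINC02773, with 29.3 (25.8 to 33.0) and a match facing away.

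EGR1 was the only gene of the set whose strong flanking peaks lay upstream alone. The peak from 138449846 to 138450410 on chromosome 5, 15322 bp before the gene, had 166 fragments, a fold enrichment of 13.5 (11.5 to 15.7) and the exact consensus facing the gene. Downstream of EGR1 the peak at 34615 bp came close to the limit with a fold enrichment of 9.09, and the nearest strong peak was 172707 bp away. DUSP1 had no strong flanking peak in its window. The nearest was 51109 bp downstream, just outside the limit of 50 kb, with a fold enrichment of 19.4, whereas the upstream peak of IER2 at 48954 bp was just inside it.

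Without the limit of 50 kb, the nearest strong flanking peak was nearer downstream than upstream in 8 of the 10 genes, all but JUN and EGR1, against 53.4% of all protein-coding genes. DUSP1 is among the 8 although it had a strong peak at −961 bp, because that peak counted as a promoter peak. The JUN peak at −1239 bp counted as flanking. The median distance of the 10 genes was 13093 bp downstream and 66540 bp upstream, and for all protein-coding genes it was 69205 and 79492 bp. This comparison was also made after the positions had been seen. The interval between the nearest strong peaks of both sides ranged from 15.8 kb (JUN) to 192 kb (EGR1), with a median of 100.8 kb.

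A convergent pair, that is, a strong peak with a plus-strand match on the left and a strong peak with a minus-strand match on the right within 50 kb, was found for 0 of the 10 genes and for 2.65% of all protein-coding genes. Of the 11 strong flanking peaks on the left (the side of lower coordinates), 7 had a plus-strand match and 4 a minus-strand match, with 2 of them having both, and 2 had none. Of the 10 on the right, 4 had a plus-strand and 1 a minus-strand match, and 5 had none. On the right, only the match downstream of FOS faced its gene. When the search was carried on to the nearest strong peaks of this orientation at any distance, the enclosed interval was 70.0 kb for JUNB, 104 kb for FOSL1, 119 kb for FOSB, 155 kb for IER3, 164 kb for FOS and 198 kb for DUSP1. It was far longer for IER2 (606 kb), EGR1 (813 kb), ATF3 (1650 kb) and JUN (2030 kb). The FOS interval held the starts of TMED10 and FOS, and the DUSP1 interval those of DUSP1 and ERGIC1.

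Another 32 immediate early genes, listed from general knowledge, were set beside the 10. A promoter peak was present in 27 of the 32, against 43.8% of all protein-coding genes. A canonical start lay inside a peak in 16 (15.3% of all), and strong peaks lay on both sides within 50 kb in 7 (16.9%). A convergent pair was present in 4 (IER5, ZFP36, BTG2 and DUSP2), against 2.65% of all. The median was 6 peaks per window, and among genes with a promoter peak the median of the highest fold enrichment was 5.64. The highest promoter peaks were those of PLK2 (38.6), EGR2 (22.7) and SGK1 (17.4), and each of the 3 was higher than that of DUSP1. EGR3, DUSP2, DUSP5, GADD45B and SIK1 had none. For SIK1 this is uncertain, because the annotation marks an artefactual duplicate of this gene in the assembly. In 21 of the 25 genes with a summit within 1 kb of the canonical start, the highest of these summits lay downstream of it. Among all protein-coding genes with such a summit this share was 55.3%. The end of the gene was inside a peak in 4 of the 32 (2.41% of all protein-coding genes). The pair of peaks around a peak-free start was present in 2 (3.49% of all). Both arrangements had been noticed in the 10. The nearest strong peak was nearer downstream in 20 of the 32, against 53.4% of all protein-coding genes.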

How the data were processed

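The data were the RAD21 peaks of 1 library, untreated wild-type HCT116. To make them, the authors used Trimmomatic 0.39 for trimming, Bowtie2 2.5.3 for paired alignment to GRCh38 without alternative contigs, Picard for duplicate removal and MACS2 2.2.9.1 with an Input control for peak calling, at a q-value of 0.05 and an effective genome size of 2805636231. The deposited list gives fold enrichment, a ratio, with the −log10 of the p-value and of the q-value. The deposited whole-number score was not used. The sources do not say which Input served as control. The only Input of the series was that of the auxin-treated HCT116_RAD21_AID cells, so the background may come from cells other than those of the ChIP.

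The fragment number and background at each summit were recovered from fold enrichment and p-value and were whole within 0.05 of a step for all but 14 peaks. Tested on simulated data, the recovery gave the right number for 1000 of 1000 peaks, and the motif search found 200 of 200 planted sites. No peak ran past a sequence end of the reference.

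Genes, starts and ends were those of GENCODE version 44, with the Ensembl canonical transcript as canonical start. A promoter peak had its summit within 1 kb of any start of the gene. Flanking peaks were summits outside the gene that were not promoter peaks. Named were all 10 genes, every promoter peak, the highest peak of each window, the nearest strong peak on each side and, of the 32 others, the 3 highest promoter peaks and the genes with none. Further peaks were named after their values were seen. The members and lists were chosen with earlier results of these data known. Shares over all protein-coding genes are descriptions, and no test was made. Alternatives were other q-values, flanks, limits, motif settings and backgrounds. Software versions were as follows: matplotlib 3.10.9, scipy 1.17.1, pysam 0.24.0, samtools 1.23.1, pandas 2.3.3, numpy 2.4.6 and Python 3.11.15.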

Additional observations from a re-analysis of the deposited data

How the results depend on the processing

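No paired analysis was possible because there was 1 library and no test between groups, and for the same reason no library could be left out. The number of genes with a promoter peak was 7 at a q-value of at most 1e-05 (33.1% of all protein-coding genes) and with a limit of 500 bp (36.5%), and 9 under the other 5 alternatives (34.1% to 50.0%). The 70 peaks became 51 at a q-value of 1e-05, 42 with flanks of 20 kb and 108 with flanks of 100 kb. The medians per window, 6 in the set against 4 in all genes, became 4.5 against 4, 3.5 against 3 and 11.5 against 7, so that the contrast was smaller under both a stricter q-value and shorter flanks. Strong peaks on both sides were present in 2 genes with flanks of 20 kb (4.60% of all protein-coding genes), in 7 with flanks of 100 kb (36.8%), in 5 at a fold enrichment of at least 5 (36.9%) and in 1 at a fold enrichment of at least 20 (4.38%). Convergent pairs were present in 3 genes with flanks of 100 kb (7.93%) and in 2 with peaks of any fold enrichment (8.12%), and in 0 with the exact consensus, with 100 bp around the summit or with flanks of 20 kb. Of the results added after the data were seen, the pair of peaks around a peak-free start was present in 1 gene with a limit of 1 kb (2.40%), in 3 at a q-value of 1e-05 (1.34%) in 4 with a limit of 3 kb (4.42%), in 1 with peak edges moved out by 50 bp (2.80%) and in 4 with edges moved in by 50 bp (3.95%). A canonical start inside a peak was found in 8 genes with edges moved out (18.8%) and in 4 with edges moved in (12.5%). The counts of ends inside a peak (4) and of strong peaks nearer downstream (8) were the same under each alternative tried for them. The promoter limit was not varied for the latter, nor for the number of genes with strong peaks on both sides. By construction these settings select more or fewer peaks, and no other cause was tested. The depth of the library limits weak peaks: at a promoter without a peak, RAD21 was not detectable at this threshold, which does not show that it was absent.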
